A study of Mus musculus with 18 samples.

Results

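Titin, the ankyrin repeat stretch sensors and their partners were followed in the calf muscle of mice under endoplasmic reticulum (ER) stress. They were taken as 6 genes, Ankrd1, Ankrd2, Ankrd23, Csrp3, Ttn and Capn3, of 22180 genes measured, by the rule that a probeset carried that gene's symbol alone, and each gene had 1 such probeset. Their gene IDs are 107765 (Ankrd1, chromosome 19), 56642 (Ankrd2, chromosome 19), 78321 (Ankrd23, chromosome 1), 13009 (Csrp3, chromosome 7), 22138 (Ttn, chromosome 2) and 12335 (Capn3, chromosome 2). A further probeset shared by Ganc and Capn3 was not used.

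In 9 wild-type mice, 1 gastrocnemius was injected with 30 µg of tunicamycin in 30 µL and the contralateral one with saline, and both muscles were collected after 24 h. Tunicamycin blocks N-linked glycosylation and so causes ER stress. By the labels the animals were females of the background mix C57Bl6/J-SV129. The study's methods name only male C57BL/6J animals, and this was not resolved. The 18 muscles were profiled on as many Affymetrix arrays (MoGene-2_0-st). Each mouse served as its own control, so any change common to both legs was not seen. The muscles are bulk tissue, in which fewer cells of a type and less RNA per cell cannot be told apart.

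Titin is a giant elastic protein that runs from the Z-disc to the M-band of the sarcomere and acts as a spring and a scaffold. In the I-band it binds the muscle ankyrin repeat proteins Ankrd1, Ankrd2 and Ankrd23, which sit at the sarcomere and can also enter the nucleus, where Ankrd1 acts as a transcriptional cofactor. Capn3, the muscle-specific calpain protease, binds titin in the same region and at the M-band, and loss of its function causes a limb-girdle muscular dystrophy in humans. Csrp3, the muscle LIM protein, is a Z-disc partner of the titin cap protein Tcap. Ankrd1, Ankrd2 and Csrp3 are known as genes that respond to stretch, load and injury, and Ankrd2 and Csrp3 are known to be more abundant in slow than in fast fibres.

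The sequences upstream of the transcription start are shown for the 4 genes on which the results turn, namely Ankrd1, which rose, Capn3, which fell, and Ankrd2 and Csrp3, which moved together from mouse to mouse. They are the 250 bases before the first start listed by RefSeq (build GRCm38.p6), 5′ to 3′ on the strand of the gene, that is chr19:36119845-36120094 on the minus strand for Ankrd1, chr19:42035777-42036026 on the plus strand for Ankrd2, chr7:48848052-48848301 on the minus strand for Csrp3 and chr2:120463343-120463592 on the plus strand for Capn3. Capitals mark matches, on either strand, to M-CAT (CATTCC, the element of TEAD factors), the E-box (CANNTG, the element of MyoD and its relatives), the TATA box (TATAAA) and the MEF2 box.
Ankrd1: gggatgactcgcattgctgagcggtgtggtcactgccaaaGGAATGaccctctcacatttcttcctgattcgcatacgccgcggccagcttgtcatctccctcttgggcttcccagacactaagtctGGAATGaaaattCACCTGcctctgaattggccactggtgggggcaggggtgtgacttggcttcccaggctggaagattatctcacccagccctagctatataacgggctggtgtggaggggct
Ankrd2: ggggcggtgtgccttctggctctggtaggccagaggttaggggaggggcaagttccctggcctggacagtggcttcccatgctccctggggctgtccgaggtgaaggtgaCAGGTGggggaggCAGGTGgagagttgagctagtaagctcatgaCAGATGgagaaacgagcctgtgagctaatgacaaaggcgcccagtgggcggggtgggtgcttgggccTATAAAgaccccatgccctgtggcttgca
Csrp3: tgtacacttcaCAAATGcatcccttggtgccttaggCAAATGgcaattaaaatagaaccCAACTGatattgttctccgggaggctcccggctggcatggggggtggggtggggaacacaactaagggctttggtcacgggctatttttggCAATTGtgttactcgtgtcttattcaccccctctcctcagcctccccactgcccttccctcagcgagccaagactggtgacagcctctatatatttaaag
Capn3: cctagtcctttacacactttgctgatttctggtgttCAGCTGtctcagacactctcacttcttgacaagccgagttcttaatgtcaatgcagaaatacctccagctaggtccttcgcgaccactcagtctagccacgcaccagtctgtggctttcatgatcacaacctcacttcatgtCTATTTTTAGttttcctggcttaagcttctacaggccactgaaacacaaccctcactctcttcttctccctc

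The Ankrd1 window held 2 M-CAT matches, which begin 210 and 123 bases before the start, and an E-box at 111. Of all 32851 windows of this length, 12.6% held an M-CAT match and 1.02% held at least 2. Ankrd2 had 3 E-boxes, at 140, 127 and 96 bases, with a TATA box at 29, and Csrp3 had 4 E-boxes, at 239, 214, 191 and 100. In the Capn3 window an E-box lay at 214 and a MEF2 box at 72. RefSeq lists 2 starts each for Ankrd23, Csrp3 and Capn3. The window of the second Capn3 start held an E-box at 55 and no MEF2 box. That of the second Csrp3 start held E-boxes at 205, 189, 165 and 16. The E-box is found in 66.2%, the TATA box in 12.4% and the MEF2 box in 2.9% of all windows, so an E-box is frequent and a MEF2 box is not. The elements of ER stress response sites were searched too. In the windows shown, CCAAT, held by 33.8% of all windows, matched once in Ankrd1, at 98. CCACG, held by 28.3%, matched once in Capn3, at 118, and not at its second start. The members not shown held some of these elements too. Ttn had a MEF2 box at 166 and CCAAT at 151 and 81, and the second start of Ankrd23 had an M-CAT match at 120. These matches describe the letters of the windows and were not tested for use.

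On the log2 scale the medians of the 18 arrays lay between 4.99 and 5.07, pairs of arrays correlated at 0.982 to 0.991, and single values ran from 1.30 to 13.0. A list of 10 ER stress genes, with the chaperone Hspa5, the co-chaperone Sdf2l1 and Ddit3 (CHOP) among them, rose in all 10 genes, by 1.47 ± 0.44 on average (log2, SD over 9 mice), with 0.82 in mouse 1 and 0.75 in mouse 9 as the lowest. All 8 skeletal muscle markers were high, with list means of 11.89 to 12.04 in every muscle. Mouse 9 stood apart from its label: Xist, the RNA of the inactive X chromosome, was at 4.79 and 4.90 in its legs against 9.22 to 9.52 in the others. Over all genes, the legs of mouse 1 and of mouse 9 did not deviate together (r -0.028 and -0.039), against r of 0.11 to 0.35 in the other mice. Values without these mice are given beside the results that they moved most. The ER stress list rose least in these same mice. Leaving them out can thus enlarge a change and shrink its p, and lends the change no support.

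Of the 6 genes, Ankrd1 rose and Capn3 fell at a Benjamini-Hochberg adjusted p under 0.05 in limma, fitted with the mouse as a block and adjusted over all genes. Of all genes 10.9% passed this threshold, 4.72% higher and 6.15% lower. The 6 genes all lay above the median level, and of the 11090 genes there, tested alone, 27.1% passed. Changes are tunicamycin minus saline on the log2 scale, and are given with limma's moderated standard error (SE), and the median change of all genes was 0.006.

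Ankrd1 had the largest change of the 6 genes. Its signal was 7.44 in the lowest saline leg, 8.68 at the median and 9.41 in the highest, against 7.64, 9.81 and 10.47 in the tunicamycin legs. Of the 9 tunicamycin legs, 6 lay above every saline leg, and the groups overlapped through mice 1, 8 and 9. The change was 1.07 ± 0.31, a 2.11-fold rise, with adjusted p = 0.0430 in limma and p = 0.0273 when the signs of the 9 changes were flipped in all ways (exact sign-flip permutation, two-sided). It was larger than that of 99.9% of genes. Of all genes 1.65% were called and higher in all 9 mice, which Ankrd1 was not, and in 0.406% every tunicamycin leg lay above every saline leg.

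The rise of Ankrd1 was uneven from mouse to mouse. The change was 2.89 in mouse 3, a 7.42-fold rise, 1.99 in mouse 2, 1.71 in mouse 4, 1.52 in mouse 6 and 1.22 in mouse 7. It was smaller in mouse 5, at 0.94, mouse 8, at 0.45, and mouse 9, at 0.15. Mouse 1 went the other way, at -1.20. The SD of the change, 1.2, exceeded that of 99.9% of genes. Without mouse 1 the change was 1.36 (limma adjusted p = 0.00438), and without mice 1 and 9 it was 1.53 (9.78e-04). Mice 1 and 9 had the lowest changes of Ankrd1, so a larger mean without them was bound to follow. The call of Ankrd1 was lost on leaving out any 1 of mice 2 to 8, with changes of 0.85 to 1.15 and limma adjusted p from 0.0517 to 0.104. It was also lost with a trended and robust variance prior (1.07, 0.120), with the slow fibre list as a covariate (1.03, 0.106) and when probesets rather than genes were tested (1.07, 0.0922).

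Capn3 changed in the opposite direction and more evenly. Its signal was 8.48 in the lowest saline leg, 8.56 at the median and 8.94 in the highest, against 7.96, 8.29 and 8.55 in the tunicamycin legs. It was lower under tunicamycin in 9 of 9 mice, and 8 tunicamycin legs lay below all saline legs. The change was -0.37 ± 0.063, 1.29-fold lower, with limma adjusted p = 0.00436 and an exact sign-flip permutation p = 0.00391, the smallest that 9 mice can give. Of all genes, 3.06% were called and lower in all 9 mice, as Capn3 was. In 0.158% every tunicamycin leg lay below every saline leg, which did not hold for Capn3, whose groups overlapped.

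The fall of Capn3 was largest in mouse 2, at -0.61, and lay between -0.51 and -0.39 in mice 3 to 7. It was -0.24 in mouse 8, -0.12 in mouse 1 and -0.0043 in mouse 9, whose legs were nearly equal. Without mice 1 and 9, in which the fall was smallest, it was bound to be larger, at -0.46 (limma adjusted p = 2.28e-04). The call held under all 19 alternatives tried, with changes of -0.46 to -0.34.

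**Figure D1:**
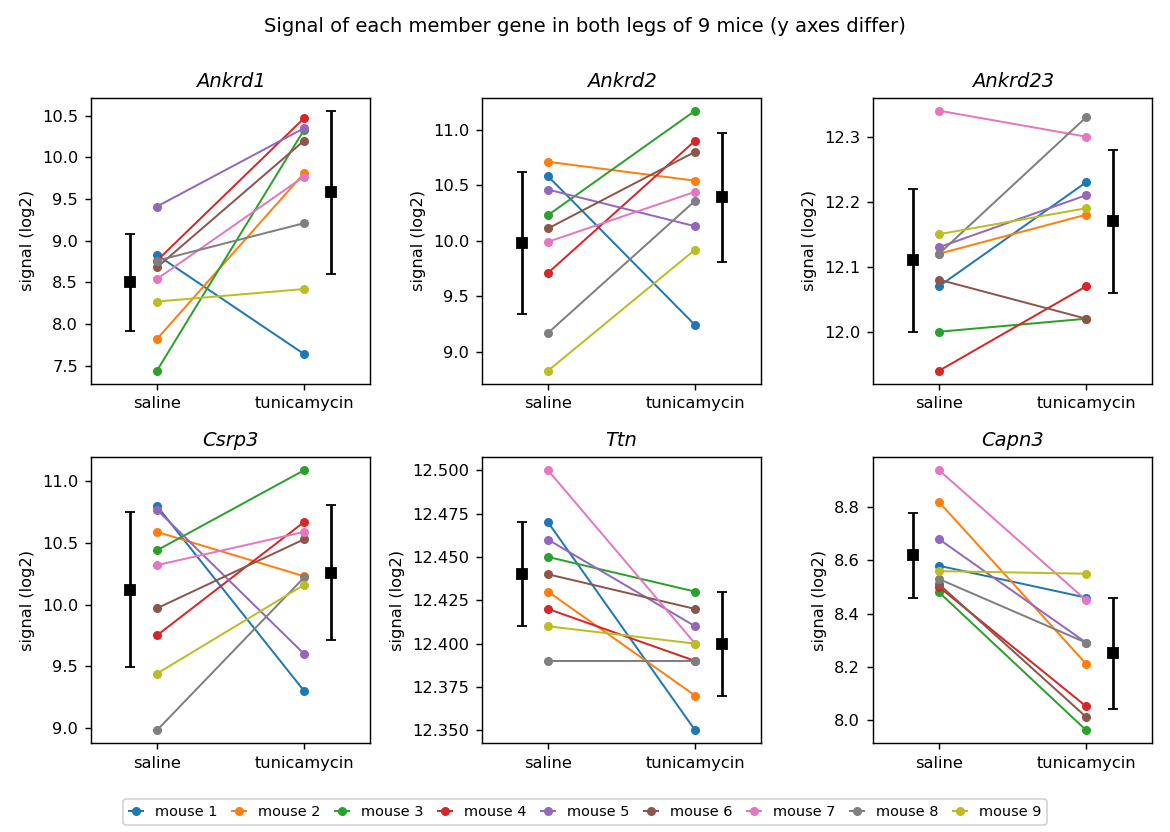
Log2 signal of each of the 6 genes in the saline and the tunicamycin leg of 9 mice. Lines join the legs of a mouse, squares and bars are the mean ± SD of 9 legs, and the y axes differ between panels. Ankrd1 lines run up except in mouse 1, Capn3 and Ttn lines run down or level, and Ankrd2 and Csrp3 lines cross.

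Ankrd2 and Csrp3 did not pass the threshold, and both varied strongly between mice. Ankrd2 was at 8.83, 10.11 and 10.71 in the lowest, median and highest saline leg and at 9.24, 10.44 and 11.17 in the tunicamycin legs. The groups overlapped, with 3 tunicamycin legs above all saline legs. The change was 0.41 ± 0.23, positive in 6 of 9 mice, with limma adjusted p = 0.280 and an exact sign-flip permutation p = 0.191. Ankrd2 changed by 1.19 in mice 4 and 8, 1.08 in mouse 9, 0.93 in mouse 3, 0.69 in mouse 6 and 0.45 in mouse 7, but by -0.17 in mouse 2, -0.32 in mouse 5 and -1.34 in mouse 1. Mouse 1 decided its side of the threshold: without it the change was 0.63 (limma adjusted p = 0.0269), while without mice 1 and 9 it was 0.57 (0.0511).

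Csrp3 was at 8.98, 10.32 and 10.80 in the lowest, median and highest saline leg and at 9.30, 10.23 and 11.09 under tunicamycin, so the groups overlapped almost wholly. The change was 0.15 ± 0.25, with limma adjusted p = 0.766 and an exact sign-flip permutation p = 0.637. Behind this small mean lay changes of 1.24 in mouse 8, 0.92 in mouse 4, 0.71 in mouse 9, 0.66 in mouse 3, 0.56 in mouse 6 and 0.27 in mouse 7, and of -0.37 in mouse 2, -1.16 in mouse 5 and -1.50 in mouse 1. The mice with negative values were the same 3 as for Ankrd2. The SD of the change was 0.86 for Ankrd2 and 0.95 for Csrp3, above that of 99.7% and 99.8% of genes.

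Ankrd23 and Ttn stayed within narrow bounds. Ankrd23 was at 11.94, 12.12 and 12.34 in the lowest, median and highest saline leg and at 12.02, 12.19 and 12.33 under tunicamycin, a change of 0.07 ± 0.042 (limma adjusted p = 0.364, exact sign-flip permutation p = 0.0703). Ttn was at 12.39, 12.44 and 12.50 in the saline legs and at 12.35, 12.40 and 12.43 in the tunicamycin legs, which overlapped, with a change of -0.04 ± 0.037, 1.03-fold. It was lower in 9 of 9 mice, as were 3.69% of all genes, by as little as 0.0003 in mouse 8, and the exact sign-flip permutation test gave its smallest p, 0.00391. In limma, which draws the spread of each gene toward that of all genes, the adjusted p of Ttn was 0.513. The SD of its change, 0.042, was smaller than in nearly all genes, with 0.1% below it. Both genes lay near the top of the scale, where the highest value of any probeset was 13.0.

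**Figure D2:**
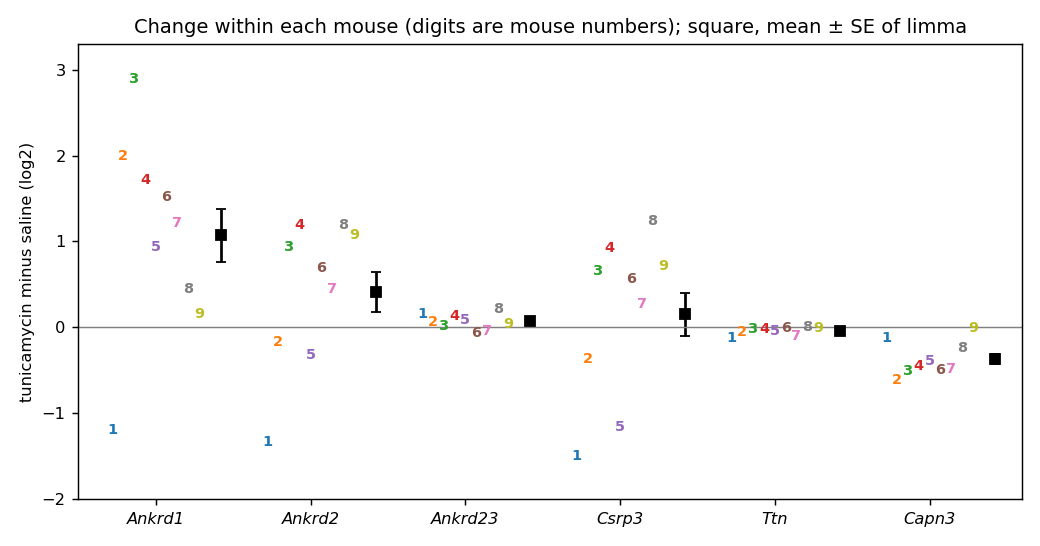
Tunicamycin minus saline, log2, within each mouse for the 6 genes; digits are mouse numbers and squares with bars are the mean ± SE of limma. Mouse 1 is lowest for Ankrd1, Ankrd2 and Csrp3, at -1.20, -1.34 and -1.50, and the values of Ttn and Ankrd23 lie close to 0.

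The changes of the 6 genes were set against each other in 15 pairs. None passed after adjustment, with a smallest adjusted p of 0.0586 in exact sign-flip permutation tests over the 9 mice, and 8 had an unadjusted p under 0.05. The smallest exact p that 9 mice can give is 0.00391, which adjusts to 0.0586 when 1 of 15 pairs alone reaches it. A single pair could therefore not pass, and the tests cannot show that the members changed alike. Ankrd2 exceeded Csrp3 by 0.26 ± 0.25 (SD), in 8 of 9 mice (exact p = 0.00781), and Ankrd23 exceeded Capn3 by 0.43 ± 0.18 in 9 of 9 (exact p = 0.00391). Ankrd1 exceeded Ankrd2 by 0.66 ± 1.07 in 7 of 9 (exact p = 0.105), so a difference between these ankyrin repeat genes did not hold up against the spread between mice. Without mouse 1, 7 of the 15 pairs passed, and without mice 1 and 9, 6 did.

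The mouse-to-mouse variation of Ankrd2 and Csrp3 was shared. Their changes correlated across the 9 mice with r = 0.97 (exact permutation p = 5.51e-06, adjusted over 33 relations 1.82e-04) and rho = 0.98 (adjusted exact permutation p = 0.00164). Without mice 1 and 5, the farthest from the median of Ankrd2, r was 0.96, and over 13 alternatives it ran from 0.96 to 0.99 and always passed. The shared variation was present in the levels as well. Across the 9 saline legs alone Ankrd2 and Csrp3 correlated with r = 0.91 and rho = 0.92, and across the 9 tunicamycin legs with r = 0.91 and rho = 0.93 (adjusted exact permutation p = 0.0181 for each r and 0.0184 for each rho, over 42 relations). Without the 2 mice farthest from the median of Ankrd2, r was 0.87 in the saline and 0.71 in the tunicamycin legs. These within-treatment relations passed in 8 of 13 alternatives each, with r of 0.90 to 0.95 and 0.83 to 0.95.

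Slow fibre genes varied between the muscles too. The mean of 9 slow fibre markers, with the slow myosin gene Myh7 and the slow troponin gene Tnni1 among them, ran from 7.47 to 9.34 in the saline legs and from 7.50 to 8.44 in the tunicamycin legs. None of the 9 passed the threshold, and the mean changed by -0.33 ± 0.74 (SD), from -1.84 in mouse 2 to 0.56 in mouse 8. In the saline legs this mean correlated with Csrp3 at r = 0.83 (adjusted exact permutation p = 0.0487) and rho = 0.82 (0.0905), and with Ankrd2 at r = 0.81 (0.0488) and rho = 0.87 (0.0473). Without mice 2 and 8 these r were 0.82 and 0.69, and they passed in 4 and 2 of 13 alternatives. In the tunicamycin legs the r were 0.58 and 0.60 and did not pass. The changes of the slow fibre mean went with those of Ankrd2 at r = 0.64 and rho = 0.78 and with those of Csrp3 at r = 0.62 and rho = 0.82, and none of these passed after adjustment (adjusted exact permutation p = 0.202, 0.0947, 0.221 and 0.0711). With this mean as a covariate, Ankrd2 changed by 0.65 (limma adjusted p = 0.0758) and Csrp3 by 0.41 (0.317). The part of fibre content in these values was not tested.

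The relation of Ttn to the slow fibre mean passed by rank only, with rho = 0.87 (adjusted exact permutation p = 0.0496) and r = 0.65 (0.202), over changes of at most 0.12. Without mice 2 and 8 this r was 0.81. For Ankrd1, r was -0.09 and rho -0.05 (adjusted exact permutation p = 0.996 and 0.970), so no relation to slow fibre genes was detectable in 9 mice.

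Ankrd1 and Capn3 moved in opposite directions across mice: the more Ankrd1 rose, the more Capn3 fell, with r = -0.83 (adjusted exact permutation p = 0.0436) and rho = -0.92 (0.0216). Without mice 1 and 3 the r was -0.93. It ran from -0.90 to -0.75 over 13 alternatives and passed in 4 of them. Without mice 1 and 9 it was -0.75, with an adjusted exact permutation p = 0.334. Across the tunicamycin legs the levels of Ankrd1 and Capn3 correlated at r = -0.75 (adjusted exact permutation p = 0.0712) and across the saline legs at 0.01, and the difference between the treatments was not tested. The levels of Ankrd2 and Capn3 correlated in the tunicamycin legs at r = -0.83 and rho = -0.92 (adjusted exact permutation p = 0.0432 and 0.0184), with r = -0.86 without mice 1 and 3, and passed in 6 of 13 alternatives. Their saline levels gave r = 0.34 (adjusted exact permutation p = 0.468) and their changes r = -0.09 (0.996). Ankrd1 and Ankrd2 correlated in the tunicamycin legs at r = 0.87 (adjusted exact permutation p = 0.0347) and rho = 0.72 (0.140), but at 0.47 without mice 1 and 9, so that this relation rested on these mice. In the saline legs Ankrd23 and Capn3 correlated at r = 0.80 (adjusted exact permutation p = 0.0487) and rho = 0.72 (0.140), but at 0.46 without mice 4 and 7, on which the relation rested, and passed in 4 of 13 alternatives. Their tunicamycin levels gave r = 0.78 (adjusted exact permutation p = 0.0712), and 0.52 without mice 3 and 6.

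**Figure D3:**
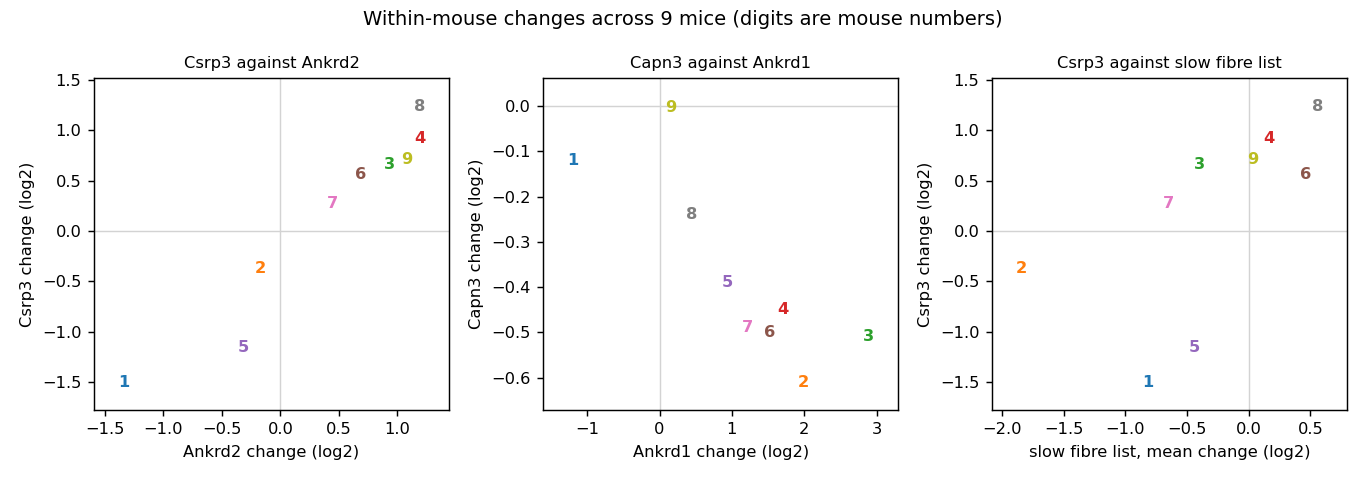
Changes (log2, tunicamycin minus saline) of Csrp3 against Ankrd2, of Capn3 against Ankrd1 and of Csrp3 against the mean of 9 slow fibre genes; each digit is a mouse. Csrp3 rises with Ankrd2 over the whole range (r = 0.97), Capn3 falls as Ankrd1 rises (r = -0.83), and the slow fibre panel is looser (r = 0.62).

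Markers of other cell types moved with the treatment. Of 9 macrophage markers 4 rose, that is 44.4% against 10.9% of all genes, among them Adgre1 (0.68 ± 0.12) and Cd68 (0.95 ± 0.26). Of the 5 that did not pass, Cd14 was at 0.70, Itgam at 0.65, Mrc1 at 0.19, Csf1r at -0.11 and C1qa at -0.12. The list mean ran from 6.12 to 6.84 in the saline and from 6.43 to 7.36 in the tunicamycin legs. Its change was 0.45 ± 0.40 (SD), positive in 7 of 9 mice, with -0.05 in mouse 1 and -0.34 in mouse 9. Across mice it went with the change of Capn3 at r = -0.87 (adjusted exact permutation p = 0.0436) and rho = -0.67 (0.216), but at -0.35 without mice 1 and 9, so that the relation rested on these mice. With the change of Ankrd1 it gave r = 0.68 (0.198 adjusted) and 0.11 without these mice. The mean change of the ER stress list went with that of Ankrd1 at r = 0.77 (adjusted exact permutation p = 0.0944), and at 0.39 without mice 1 and 9. With the change of Capn3 the ER stress list gave r = -0.71 (adjusted exact permutation p = 0.165), and 0.23 without these mice. Of 6 neutrophil markers 3 rose, and of 8 fibroblast and tendon markers 2 rose and 2 fell, and of 6 endothelium and smooth muscle markers 2 fell. No marker of satellite cells, the muscle stem cells, and no fast fibre marker passed. The mean levels of the fast fibre markers were 11.19 to 12.88, against a highest value of 13.0, which limits what can be seen for them. What these cells contributed to the 6 genes was not tested.

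Genes of proteins that bind titin, or that lie beside it in the sarcomere and bind its partners, were followed as a list of 28 measured genes, called titin partners here. Of these 1 rose, 8 fell and 19 did not pass, that is 32.1% past the threshold against 10.9% of all genes, with a median change of -0.109 against 0.006, and 23 of the 28 values were below 0. Among genes above the median level alone the shares were closer, 39.3% of the 28 partners against 27.1% of 11090 genes. The count fell to 5 without the mouse block (17.9% against 8.38% of all genes) and to 4 with the slow fibre covariate (14.3% against 6.19%). It was 5 without mouse 2, 3, 4 or 7, that is 17.9% against 7.06%, 5.88%, 6.15% and 6.51%. Without mice 1 and 9 it was 12 (42.9% against 14.5%), of which 10 fell. The list was drawn up with earlier results of these muscles known.

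At the Z-disc end, Flnc, the actin crosslinker filamin C, was the 1 gene that rose, from a saline median of 10.88 to 11.49 (0.46 ± 0.099, limma adjusted p = 0.0124, higher in 8 of 9 mice). Its change ran from -0.29 to 0.90. Tcap, the cap protein that ties the end of titin to the Z-disc and binds Csrp3, went from 11.67 to 11.44 at the median and was lower in 9 of 9 mice (-0.24 ± 0.044, limma adjusted p = 0.00598), a call lost without the mouse block (0.118). Myoz3, a calsarcin that binds calcineurin, fell by 0.20 (limma adjusted p = 0.0200) and Ldb3, the Z-disc PDZ-LIM protein ZASP, by 0.17 (0.0471), and both calls were lost without the block too (0.0978 and 0.113). Of the other 6 Z-disc genes, all below 0, the farthest was Myoz2, the calsarcin of slow and cardiac muscle, at -0.41 ± 0.17, which did not pass (limma adjusted p = 0.151).

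In the I-band, where the ankyrin repeat proteins bind, Palld, the actin-binding protein palladin, fell in 9 of 9 mice, from a saline median of 7.83 to 7.53 (-0.33 ± 0.063, limma adjusted p = 0.00659). Mypn, its relative myopalladin and a binding partner of Ankrd1, changed by -0.15 ± 0.042 (adjusted p = 0.0374 in limma) and Smyd2, a methyltransferase that associates with titin, by -0.20 ± 0.055 (0.0357, and 0.126 without the block). Ankrd1 rose while these I-band partners fell, and the difference between them was not tested. The small heat shock protein gene Cryab, which binds the titin spring, was at 0.25 ± 0.098 and did not pass (limma adjusted p = 0.126), nor did the FHL genes, at -0.10 to -0.03.

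At the M-band end, Trim55, a muscle RING finger protein that binds titin near its kinase domain, fell in 9 of 9 mice from a saline median of 7.51 to 7.25 (-0.37 ± 0.062, limma adjusted p = 0.00388). Myom1, the crosslinker myomesin, changed by -0.20 ± 0.048 (limma adjusted p = 0.0173). Trim63, the atrophy-linked ubiquitin ligase of the same family, was at 0.00 ± 0.046 (limma adjusted p = 0.979). The kinase-domain partners Nbr1 and Sqstm1, which act in autophagy, were at 0.09 and 0.10, each higher in 8 of 9 mice, and did not pass. Neither of the 2 A-band genes measured, the myosin-binding proteins Mybpc1 and Mybpc2, passed. Their saline medians, 11.87 and 12.06, lay near the top of the scale, which limits what can be seen for them. The same holds for the Z-disc genes Actn3 (12.67), Neb (12.40) and Myot (12.06).

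**Figure D4:**
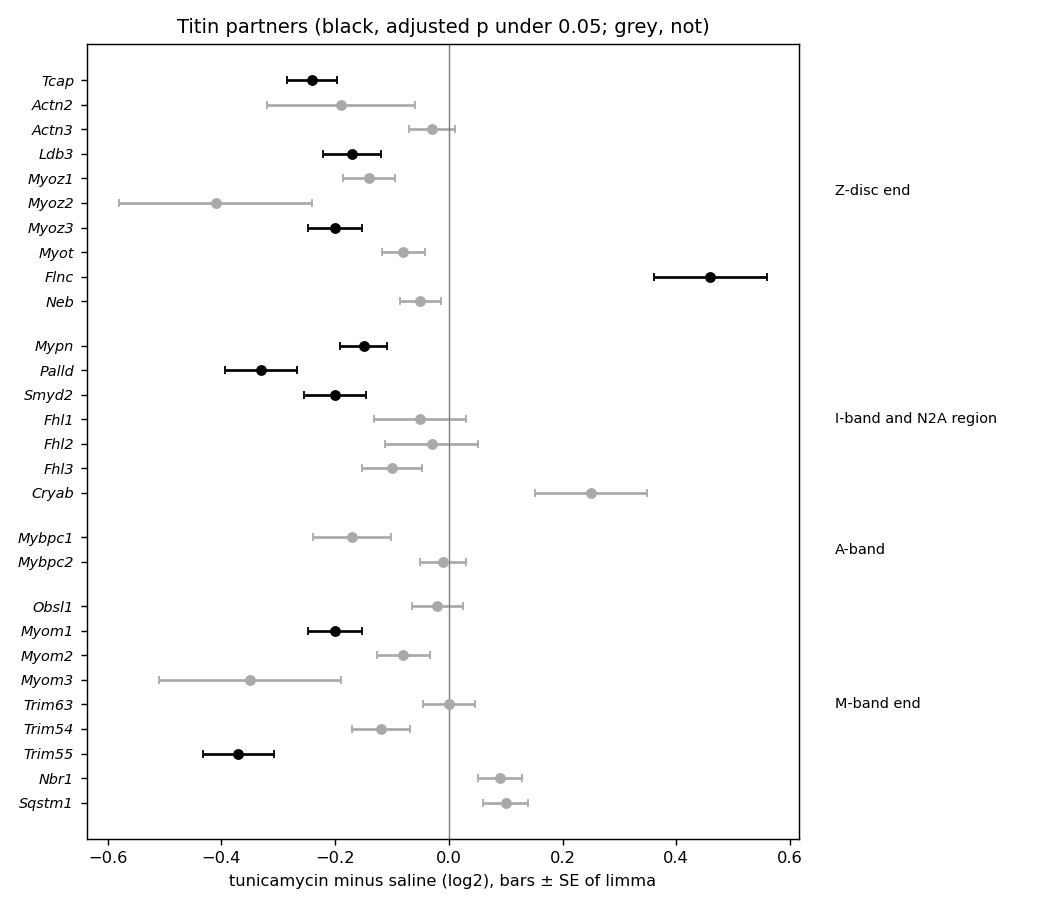
Change (log2, tunicamycin minus saline, mean ± SE of limma, 9 mice) of 28 titin partners ordered from the Z-disc to the M-band end. Black points passed the threshold: Flnc at 0.46 lies to the right, and the 8 others lie at -0.37 to -0.15.

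Relatives of Capn3 and Csrp3 were measured as well. Capn2, the catalytic subunit of a calpain found in most tissues, rose by 0.20 ± 0.052 (limma adjusted p = 0.0293), from a saline median of 8.95 to 9.11, while Capn3 fell, and the difference between them was not tested. The calpain subunit gene Capns1 (0.05) and the inhibitor gene Cast (0.06) did not pass, nor did the paralogs of Csrp3, Csrp1 (0.07) and Csrp2 (-0.04). Capn1 was measured only by probesets shared with other genes and was not analysed here.

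Ankrd1 is also a known target of the coactivators YAP and TAZ, which act through TEAD factors in cells under tension. Of 31 measured YAP and TEAD genes 3 rose and 2 fell, 16.1% against 10.9% of all genes, with a median change of 0.001. Among genes above the median level the list did not stand out, with 25.9% of 27 against 27.1%. Of the cofactors of TEAD, Vgll3 rose (0.21 ± 0.06, limma adjusted p = 0.0452) and Vgll2, which promotes the muscle program, fell (-0.40 ± 0.12, 0.0474). Of the targets, Myof, the membrane repair gene myoferlin (0.35 ± 0.084, limma adjusted p = 0.0185), and Dock5 (0.19 ± 0.053, 0.0394) rose, and Crim1 fell in 9 of 9 mice (-0.37 ± 0.069, 0.00587). The classical targets Ccn1 and Ccn2 were at -0.17 and 0.07 and did not pass. The count was 2 with the slow fibre covariate (6.45% against 6.19% of all genes) and when probesets were tested. It was 1 without mouse 4 or 5 (3.23% against 6.15% and 6.34%). Without mouse 2, 3, 6 or 7 it was 2 or 3, that is 6.45% or 9.68% against 5.88% to 7.06%. Without mice 1 and 9 it was 7 (22.6% against 14.5%).

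Of 11 genes of immature or denervated muscle, with myogenin and embryonic myosin among them, 1 passed: Runx1, a transcription factor that rises in denervated muscle, at 0.60 ± 0.17 (limma adjusted p = 0.0439), from a saline median of 6.55 to 7.18, and at 0.88 without mice 1 and 9. This is 9.09% of the list against 10.9% of all genes, and the median of the list was -0.070.

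The 3 genes whose change was most like that of each member over the 9 mice were taken from 10404 genes above the median level. For Ankrd1 they were Tln1, the integrin linker talin (r 0.979), the chemokine gene Cxcl14 (0.974) and the integrin gene Itgb1 (0.972). Of these Tln1 rose by 0.30 (limma adjusted p = 0.0210) and Cxcl14 by 0.31 (0.0216). Ankrd2 and Csrp3 shared 2 of their 3, Lmcd1, a LIM domain protein gene (r 0.977 and 0.951), and Chd6, a chromatin remodeller gene (0.951 and 0.965). Their other genes were Synpo2l (0.942) for Ankrd2 and Ccdc136 (0.948) for Csrp3. Chd6 itself changed by -0.16 (limma adjusted p = 0.0349), a call lost without mice 1 and 9 (-0.14, 0.0747) and without the block (0.196).

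For Capn3 the nearest were Asb16 (r 0.975), Cuedc1 (0.973) and Pdpr, which encodes a subunit of pyruvate dehydrogenase phosphatase (0.969), and all 3 fell, by 0.33, 0.35 and 0.24 (limma adjusted p = 0.0136, 0.00826 and 0.0136). For Ankrd23 they were Etfb, an electron transfer flavoprotein subunit (0.951), which changed by -0.28 (limma adjusted p = 0.0448, and 0.0695 without mouse 9), Crb3 (0.938) and Slc25a22 (0.933). For Ttn they were Ptchd1 (0.904), Dip2c (0.900) and Arpin (0.893). These r were picked as the highest among many genes and are given as a description.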

How the data were processed

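Total RNA of both gastrocnemius muscles of 9 mice was hybridised to Affymetrix MoGene-2_0-st arrays. The authors deposited 1 log2 value per probeset, normalized in Partek (RMA background correction, quantiles, median polish). Quantiles still differed between arrays by up to 0.27. Array signals compress large changes. No depth applies to arrays, and their number limits the precision.

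Of 41345 probesets, 23521 had 1 gene symbol in the platform annotation, 1820 had several, and 16004 were absent from it. Of those with 1 symbol, 23328 matched a RefSeq gene ID, 0 with another symbol. They were averaged to 22180 genes. The test across genes was limma 3.58.1 in R 4.3.3, two-sided (eBayes after lmFit), with a block for mouse and Benjamini-Hochberg adjustment over all genes, threshold 0.05, and the fit was tested on simulated data. The study's methods name tests in Partek at probeset level that allowed for the factors of the design, and whether the mouse was one of them is not given in the sources used here. Single values were also tested by exact sign-flip permutation over mice, and relations by exact permutation of 362880 pairings. Scan dates were not used here.

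The pairing is that of the labels, by which each animal received both injections. As a check, deviations from group means correlated between the legs of 1 mouse at a median r of 0.12 (-0.039 to 0.35), and between legs of different mice at -0.013. For 6 of 9 tunicamycin legs, their own saline leg was the nearest.

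The 6 genes and all lists were chosen with earlier results of these data known, and the motifs after the sequences were seen. The text names the 6 genes, each gene of the partner, paralog, YAP and TEAD and immature muscle lists past the threshold, and the 3 genes most like each member among genes above the median level, without predicted genes and small RNAs. Some genes that did not pass were named after their values were seen. Alternatives were no block, quantile normalization again, centring, the brightest probeset, a filter on dim genes, another prior, array weights, slow fibre genes as a covariate, tests by probeset, and leaving out each mouse or mice 1 and 9. The relations within a treatment were added after seeing the data.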

Additional observations from a re-analysis of the deposited data

Results flagged for a closer look

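The mean change of the fibroblast and tendon list in mouse 9 stood far from the other mice. It was -0.39 there and -0.055 to 0.24 in the other 8 mice, a gap of 0.54 of the whole range. Of 44 sets of 9 values that were looked at, this was the 1 set with such a sample. Chance alone flags about 1 set in 20, so 1 flag among 44 sets is no more than chance gives. None of the 6 genes had such a sample, in its levels or in its change.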

How the results depend on the processing

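Capn3 kept its direction and its call under all 19 alternatives, and no called value changed sign. Ankrd1 passed in 9 of 19. Its change was 1.07 with a trended and robust prior, 1.03 with the slow fibre covariate and 1.07 by probeset, none of them past the threshold, and 0.85 to 1.36 on leaving out 1 mouse. Ankrd2 ranged from 0.32 to 0.63 on leaving out 1 mouse and passed without mouse 1 alone. Without the mouse block, that is without the pairing, the adjusted p in limma was 0.0438 for Ankrd1 (1.07) and 0.00845 for Capn3 (-0.37), and no member's call changed, but titin partners past the threshold went from 9 to 5. The count over all genes was 2410, and 1859 without the block, 1374 with the slow fibre covariate and 1304 to 2787 on leaving out 1 mouse. The share of falls was 56.6%, but 49.4% after quantile normalization again and 69.0% after centring. With the slow fibre covariate 4 titin partners and 2 YAP and TEAD genes passed, and 2 of the latter by probeset. On leaving out 1 mouse these counts were 5 to 9 and 1 to 6. Relations past the threshold numbered 3, then 1 after quantile normalization again, 1 without mice 1 and 9 and 1 to 5 on leaving out 1 mouse. Differences between members went from 0 to 6 without mice 1 and 9 and 0 to 7 on leaving out 1 mouse. Of 42 relations within a treatment 7 passed, and 0 without mouse 1, 3, 4 or 6. Of 16 named list genes, Flnc, Palld, Trim55 and Crim1 passed under all alternatives. The call was lost in 12 of 19 alternatives for Vgll3, in 11 for Vgll2, Ldb3 and Smyd2, in 10 for Mypn and Runx1, in 9 for Capn2 and Dock5, in 6 for Myoz3, in 3 for Myof and in 1 for Tcap and Myom1. Of the genes most like a member, Chd6 lost it in 12, Etfb in 11 and Tln1 and Cxcl14 in 7. The causes were not tested. Few mice and values near the top of the scale limit what can be seen for Ankrd23, Ttn and some titin partners.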
